A study of Mus musculus with 11 samples.

Results

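The genes described here are the chemokine ligands of the mouse, taken from the deposited count table by symbol: Ccl followed by a number and at most 1 letter, Cxcl followed by a number, Cx3cl1 and Xcl1. They are 38 of 46517 gene identifiers, and no measured value was used to choose them. They were followed in 11 libraries of ventricular myocardium in 4 groups. KO TAC mice (3 libraries) carried floxed Lmnb2, which encodes the nuclear lamina protein lamin B2, together with a Cre recombinase under the cardiomyocyte promoter of Tnnt2, and had transverse aortic constriction (TAC), a narrowing of the aortic arch that raises the pressure load on the heart. WT TAC mice (3 libraries) carried the Tnnt2-Cre and had the same operation. KO sham mice (3 libraries) had the floxed Lmnb2 and the Cre, and WT sham mice (2 libraries) the Cre, and both had sham surgery. The genotypes are those the protocol names for the operated mice, with Tnnt2-Cre mice as the control, so that all groups are taken to carry the Cre. The label of WT sham 2 reads WT, while that of the other 4 WT libraries reads Lmnb2 WT, and it was kept in the group. The mice were 10 to 12 weeks old at surgery, and the sources used here do not give how long after surgery the hearts were taken. Whether each library came from its own mouse is not stated beyond the sample labels, so that p-values measure the spread between these libraries.

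Chemokines are small secreted proteins that bind G protein-coupled receptors on leukocytes and other cells and draw them along a concentration gradient. CC and CXC chemokines are named for the spacing of their first cysteines, and many of their genes lie in clusters. In the heart they are known for bringing monocytes, neutrophils and lymphocytes into the muscle after injury or pressure overload, and CXCL12 also for its part in vessels. Macrophages, endothelial cells and fibroblasts are textbook sources. A bulk library does not separate these cells, so fewer cells of a type and less RNA per cell cannot be told apart in any value below.

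Total counts ran from 14770383 to 17333227 per library. Levels are given in CPM, counts per 1000000 counts of the library, after TMM scaling, which evens out composition differences between libraries. The targeted gene went against its label after TAC. Lmnb2 measured 9.72, 3.24 and 4.46 CPM in the libraries labelled KO TAC and 2.86, 2.16 and 6.70 CPM in the WT TAC libraries, against 0.649, 1.81 and 2.43 CPM in KO sham and 4.44 and 3.86 CPM in WT sham libraries. The log2 difference of KO over WT after TAC was 0.57 ± 0.55 (adjusted p = 0.792, edgeR's quasi-likelihood test), and -0.066 without KO TAC 1. The Cre is under a cardiomyocyte promoter, and a bulk library also holds the Lmnb2 mRNA of other cells. The part of those cells in these values was not tested, and why Lmnb2 was not lower in KO TAC libraries is not known. KO is therefore used below as the label of the libraries. Within the TAC groups, KO TAC 1 and WT TAC 3 stood apart from the other 4 libraries: ribosomal protein mRNA took 0.874% and 1.33% of their counts, against 3.19% to 6.78% in the others, and mitochondrial transcripts took 35.9% and 30.5%, against 13.2% to 25.9%. Sham libraries had 0.654% to 1.73% and 32.8% to 49.4%. KO TAC 1 thus lay within the sham range in both, and WT TAC 3 within it in the first and just below it in the second. The ribosomal protein share mostly followed surgery, and changes adjusted for it below are not separate from the operation. The 9 macrophage and monocyte markers (Cd68, Adgre1, Csf1r, Lyz2, C1qa, C1qb, Mrc1, Ccr2 and Ly6c2) summed to 463, 1108 and 1489 CPM in KO TAC 1 to 3, to 2123, 2367 and 405 CPM in WT TAC 1 to 3, to 211 to 420 CPM in KO sham and to 209 to 343 CPM in WT sham hearts. None of the 9 was at 0 counts over all libraries. Results that rest on KO TAC 1 and WT TAC 3 are given with and without them. The numbers in the sample titles follow surgery, so a batch that follows them and the operation cannot be told apart. Each title ends in a letter whose meaning is not stated. It is F in KO TAC 3, WT TAC 1 and KO sham 2 and M in the others, so both WT sham libraries have M.

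Of the 38 ligand genes, 12 had fewer than 10 counts over the 11 libraries and were not measured: Ccl1, Ccl20, Ccl21b, Ccl26 and Ccl27b, with 0 counts, and Ccl19, Ccl28, Cxcl3, Cxcl11, Cxcl13, Cxcl15 and Cxcl17, with 2 to 9 counts. Another 3 had 15 to 45 counts and did not pass the filter on low counts. Cxcl2, a neutrophil attractant, had 8, 2 and 0 counts in KO TAC, 11, 9 and 9 counts in WT TAC, 2, 0 and 0 counts in KO sham and 2 and 2 counts in WT sham hearts. Ccl22, a CCR4 ligand, had 2, 0 and 4 counts in KO TAC, 0, 2 and 5 counts in WT TAC, 0, 1 and 1 counts in KO sham and 0 and 0 counts in WT sham hearts. Xcl1, the ligand of the dendritic cell receptor XCR1, had 7 counts in KO TAC 1, 2 and 6 counts in KO sham 1 and 3, 1 count in WT sham 1, and 0 counts in the other libraries. The remaining 23 were tested. Ccl21a and Ccl27a have near-identical copies, Ccl21b and Ccl27b, which had 0 counts. The sources used here do not say how reads that align to more than 1 copy were counted. The values of Ccl21a and Ccl27a are uncertain for that reason.

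Compared per length of exon, the tested ligands ran in KO TAC hearts from Ccl25 with a mean of 0.170 CPM per kb to Ccl6 with 16.9 CPM per kb, and the leading genes differed between operations. In sham hearts Cxcl12, the stromal ligand of CXCR4, led with a mean of 14.7 CPM per kb in KO and 11.3 CPM per kb in WT hearts, ahead of Ccl6 with 9.43 and 7.63 CPM per kb. After TAC, Ccl8 reached 16.1 CPM per kb in KO and 30.8 CPM per kb in WT hearts, and Ccl6 16.9 and 30.5 CPM per kb, above Cxcl12 with 11.9 and 7.42 CPM per kb. This order of the means held in 4 of the 6 TAC libraries and was the opposite in KO TAC 1, with 18.1 for Cxcl12, 7.70 for Ccl6 and 4.66 CPM per kb for Ccl8, and in WT TAC 3, with 9.70, 3.85 and 4.78 CPM per kb for the same genes. The means of Ccl9 were 13.1 CPM per kb in KO TAC and 17.2 CPM per kb in WT TAC hearts, also above Cxcl12. Those of Cxcl16 (8.35 and 7.82 CPM per kb) and Ccl12 (7.66 and 9.24 CPM per kb) were below Cxcl12 in KO TAC and above it in WT TAC hearts. The level of all members together was 245, 228 and 283 CPM in KO TAC, 273, 335 and 153 CPM in WT TAC, 218, 209 and 223 CPM in KO sham and 182 and 171 CPM in WT sham hearts. Cxcl12, Ccl6 and Ccl9 together gave 61.0% to 79.0% of it in every library. The share of Cxcl12 was 60.4%, 33.0% and 24.5% in KO TAC and 18.7%, 15.4% and 51.8% in WT TAC, against 47.5% to 67.9% in KO sham and 51.7% and 53.0% in WT sham hearts. The share of Ccl6 and Ccl9 ran the other way, with 10.7%, 31.2% and 40.1% in KO TAC and 48.2%, 52.7% and 9.21% in WT TAC, against 11.2% to 20.1% in KO sham and 16.7% and 13.8% in WT sham hearts. Cxcl12 took more than Ccl6 and Ccl9 in KO TAC 1, KO TAC 2 and WT TAC 3, as in every sham library, and in KO TAC 2 the shares lay close together.

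**Figure D1:**
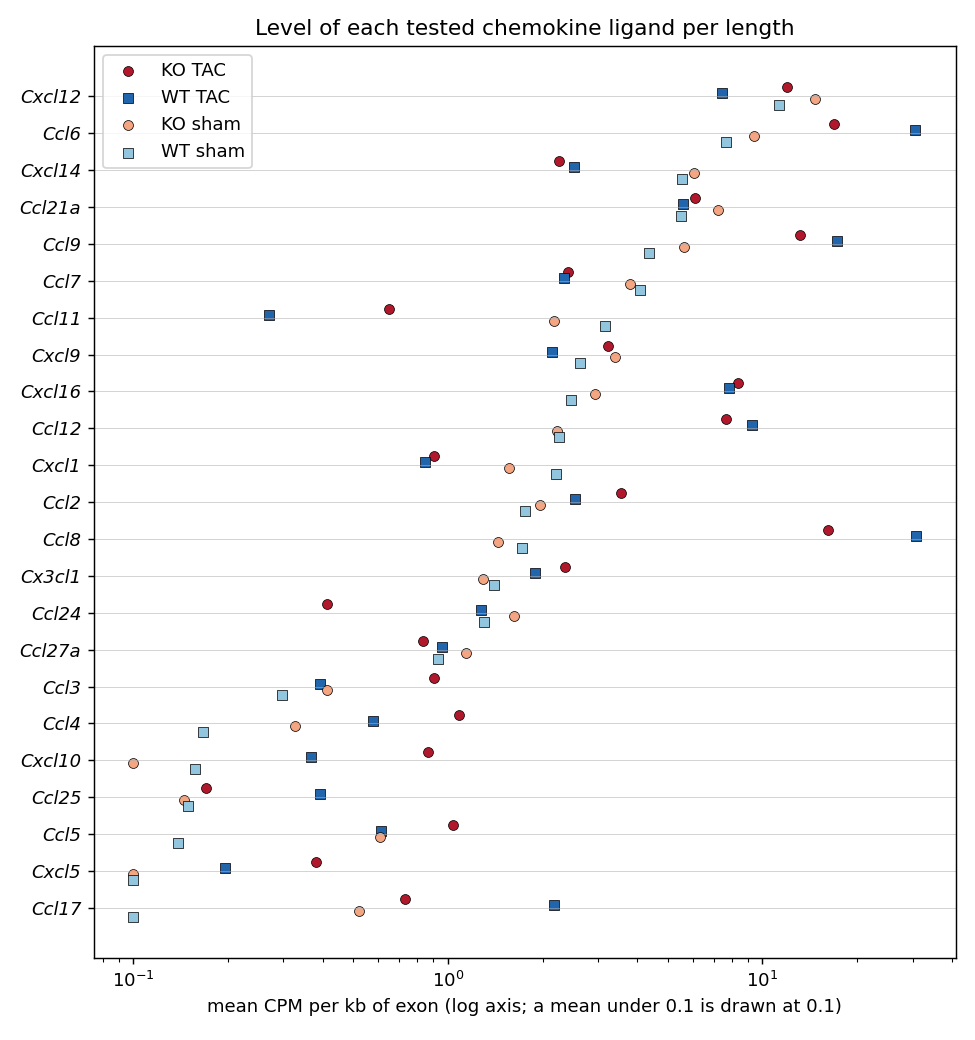
Mean level of the 23 tested chemokine ligands in CPM per kb of exon (log axis), one row per gene ordered by the WT sham mean, with symbols for the 4 groups. Ccl8, Ccl6, Ccl9, Cxcl16 and Ccl12 lie to the right in both TAC groups, and Ccl11 (0.651 in KO TAC and 0.270 in WT TAC, against 2.18 in KO sham and 3.16 in WT sham) and Cxcl14 to the left.

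The comparison of TAC with sham asks which ligands changed with the operation. Over both genotypes, 6 of the 23 tested ligands passed (edgeR's quasi-likelihood test, Benjamini-Hochberg adjusted p under 0.05 over all 14619 tested genes), which is 26.1% beside 19.5% of all tested genes. Ccl8, Cxcl16 and Cxcl10 rose and Ccl11, Cxcl14 and Cxcl1 fell. The median log2 change of the 23 was 0.74, beside 0.05 for all genes, and 12 of 23 had an unadjusted p under 0.05, beside 33.2% of all genes. In KO hearts 2 of 23 passed, Cxcl10 and Ccl8, both higher, beside 4.7% of all tested genes. The median log2 change of the ligands there was 0.77, beside 0.03 for all genes. In WT hearts 2 of 23 passed, Ccl8 higher and Ccl11 lower, beside 6.92% of all tested genes, with a median log2 change of 0.52 beside 0.05. These shares of calls are near those of all genes. The KO and WT comparisons use different sham libraries, and the comparison over both genotypes pools them, so its calls are not separate from theirs. In every TAC library Ccl8, Cxcl10 and Cxcl16 were above, and Ccl11 and Cxcl1 below, every sham library. These 5 of 23 stand beside 13.6% of all tested genes whose TAC and sham libraries do not overlap. Within KO the libraries did not overlap for 9 of 23 (5 higher, 4 lower), beside 25.8% of all tested genes, and within WT for 11 of 23 (7 higher, 4 lower), beside 40.3%.

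**Figure D2:**
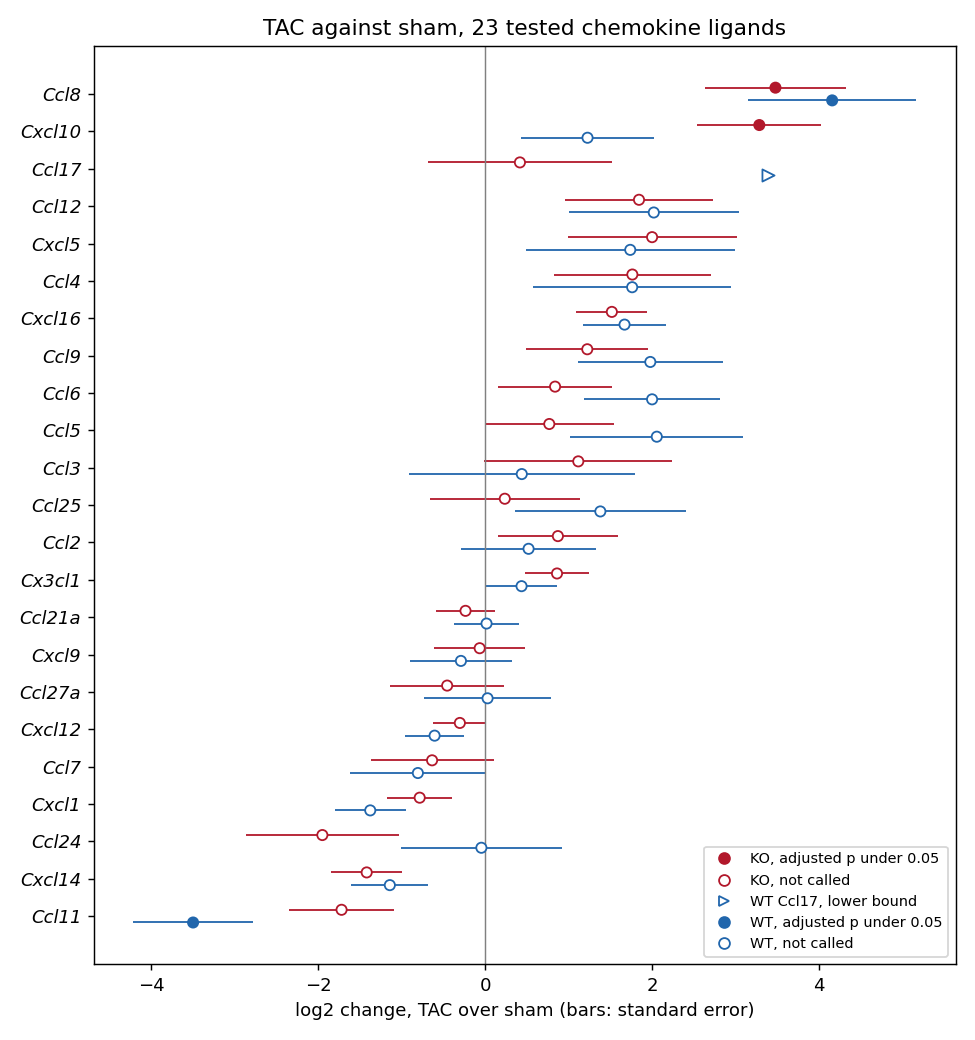
Log2 change of TAC over sham with its standard error for the 23 tested ligands in KO (red) and WT hearts (blue), ordered by the change over both genotypes; filled symbols passed an adjusted p of 0.05. Ccl17 in WT is drawn as a triangle at its lower bound (3.38 on the log2 scale), because both WT sham libraries had 0 counts.

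**Figure D3:**
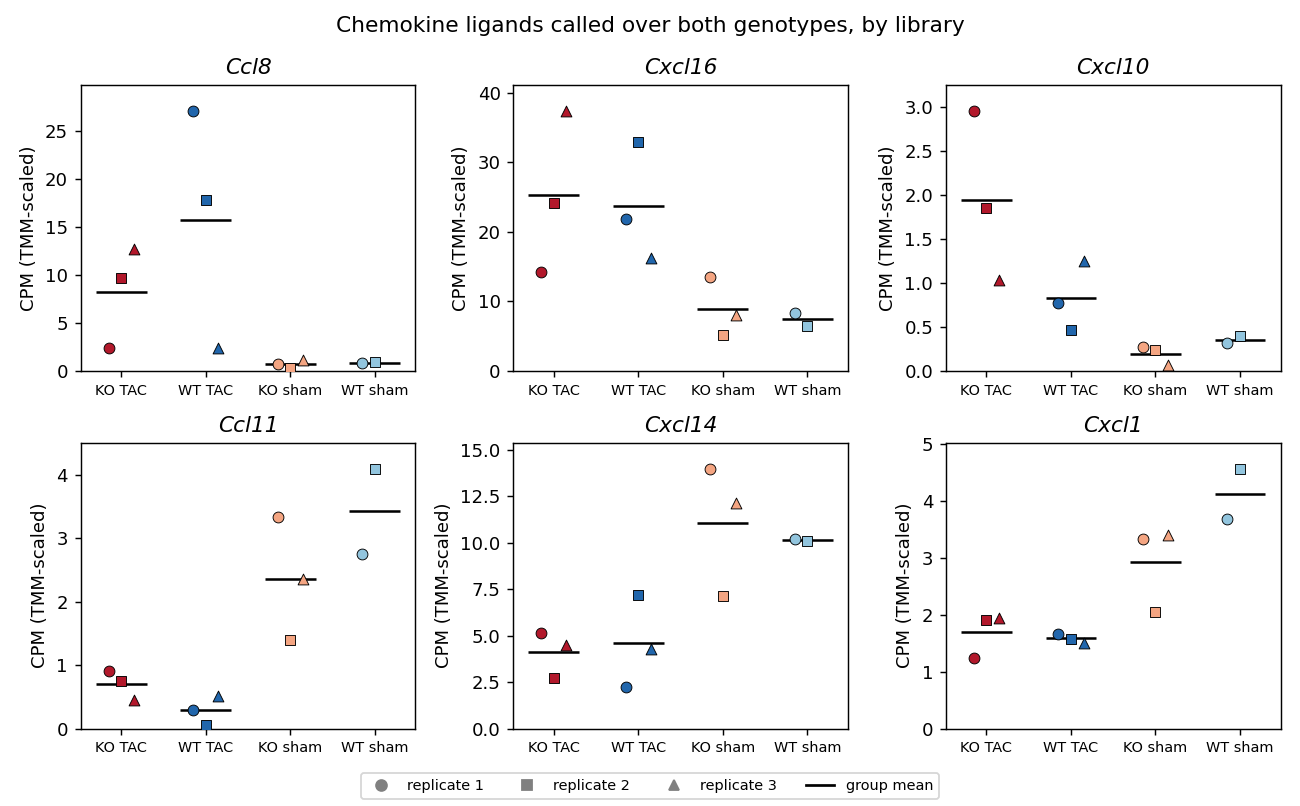
Level in CPM of the 6 ligands that passed over both genotypes, by library and group; symbols give the replicate and bars the group mean. TAC and sham libraries do not overlap for Ccl8, Cxcl16, Cxcl10, Ccl11 and Cxcl1, and for Cxcl14 WT TAC 2 lies just above KO sham 2.

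Ccl8 (ENSMUSG00000009185, chr11:82115185-82116799, plus strand, GRCm38) lies in the cluster of monocyte-attracting CC chemokines on chromosome 11. Mouse CCL8 is known as a ligand of CCR8. It measured 2.38, 9.65 and 12.6 CPM in KO TAC and 27, 17.8 and 2.44 CPM in WT TAC hearts. Sham hearts had 0.741, 0.362 and 1.11 CPM in KO sham and 0.813 and 0.945 CPM in WT sham hearts. All 6 TAC libraries were above all 5 sham libraries, and KO TAC 1 and WT TAC 3 were the lowest of their groups. Ccl8 rose by 3.48 ± 0.85 log2 in KO (adjusted p = 0.0366, edgeR), by 4.16 ± 1.01 log2 in WT (adjusted p = 0.0304) and by 3.78 ± 0.64 log2 over both genotypes (adjusted p = 0.00151), the highest change of the 23 over both. That last call held under all 21 alternatives run, between 2.11 and 4.25. The KO call was lost in 11 of 22 and the WT call in 8 of 22, with adjusted p between 0.0520 and 0.284 and between 0.0593 and 0.218 where lost. Among single libraries, KO TAC 2 or 3, WT TAC 2, each of the 3 KO sham libraries and each of the 2 WT sham libraries ended the KO call when left out (adjusted p 0.0542 to 0.135), and WT TAC 1 or 2 and either WT sham library ended the WT call (0.0779 to 0.211). Without KO TAC 1 and WT TAC 3 the change was 3.89 ± 0.41 in KO and 4.66 ± 0.47 in WT (adjusted p = 5.56e-05 and 2.6e-05). Adjusted for ribosomal protein share it was 2.40 ± 0.44 in KO (adjusted p = 0.00209) and 1.51 ± 0.60 in WT (adjusted p = 0.136). Ccr8, the gene of that receptor, had 0 counts in every library.

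The 250 bases before the RefSeq start of Ccl8 (chr11:82114935-82115184 (plus strand), GRCm38.p6) are shown because it was the ligand with the highest change. The capitals mark TATAAA, the letters of a TATA box, at positions -32 to -27, counted from the start. Both strands were searched for it here and in all 32851 promoter windows of this length, of which 12.4% hold it.
Ccl8: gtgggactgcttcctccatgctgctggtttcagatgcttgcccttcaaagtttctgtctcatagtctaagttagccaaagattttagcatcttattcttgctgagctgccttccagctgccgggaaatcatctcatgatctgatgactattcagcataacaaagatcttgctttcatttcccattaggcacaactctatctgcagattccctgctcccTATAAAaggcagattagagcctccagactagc

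The monocyte ligands Ccl2, Ccl7 and Ccl12 lie in the same cluster and bind CCR2, the receptor that brings monocytes out of the marrow and into tissue. None of them passed in any of the 3 TAC comparisons. Ccl12 measured 2.19, 2.6 and 7.55 CPM in KO TAC and 6.2, 6.66 and 2.03 CPM in WT TAC hearts. With sham surgery the levels were 3.06, 0.121 and 0.417 CPM in KO sham and 1.25 and 1.18 CPM in WT sham hearts. The WT TAC libraries were above both WT sham libraries, and in KO the groups overlapped through KO sham 1. The change of Ccl12 was 1.92 ± 0.65 log2 over both genotypes (adjusted p = 0.0528), and 2.24 ± 0.61 (adjusted p = 0.0111) without KO TAC 1 and WT TAC 3. Ccl2 measured 3.81, 4.68 and 3.66 CPM in KO TAC and 2.38, 5.73 and 0.571 CPM in WT TAC hearts. The sham groups measured 3.06, 0.724 and 2.92 CPM in KO sham and 2.81 and 1.18 CPM in WT sham hearts. The 3 KO TAC libraries were above the 3 KO sham libraries, and in WT the groups overlapped with WT TAC 3 the lowest. Ccl7 was at 0.686 to 2.81 CPM in KO TAC and 0.831 to 3.10 CPM in WT TAC hearts, against 0.543 to 5.14 CPM in KO sham and 2.91 and 3.63 CPM in WT sham hearts. In both genotypes TAC and sham libraries of Ccl7 overlapped.

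A second cluster of CC chemokines on chromosome 11 holds Ccl3, Ccl4, Ccl5, Ccl6 and Ccl9, which are made mainly by myeloid cells and lymphocytes. Ccl6 and Ccl9, known in rodents as CCR1 ligands of macrophages, were the most abundant of them. Ccl6 measured 13.8, 34.2 and 42.7 CPM in KO TAC and 52.7, 105 and 6.91 CPM in WT TAC hearts. After sham surgery the gene was at 14.7, 13.5 and 22.5 CPM in KO sham and 14.9 and 12.5 CPM in WT sham hearts. Ccl9 measured 12.4, 36.9 and 70.8 CPM in KO TAC and 78.7, 71.5 and 7.22 CPM in WT TAC hearts. Sham levels were 19.4, 9.84 and 22.3 CPM in KO sham and 15.5 and 11.1 CPM in WT sham hearts. In both genes 4 TAC libraries were above all 5 sham libraries, while KO TAC 1 lay within the sham range and WT TAC 3 below it. The changes over both genotypes were 1.34 ± 0.54 log2 for Ccl6 (adjusted p = 0.102, edgeR) and 1.55 ± 0.56 log2 for Ccl9 (adjusted p = 0.0681), and neither passed in KO or in WT. Without KO TAC 1 and WT TAC 3 both passed in each genotype: Ccl6 by 1.15 ± 0.31 in KO (adjusted p = 0.0232) and 2.52 ± 0.36 in WT (adjusted p = 0.000308), and Ccl9 by 1.62 ± 0.34 (adjusted p = 0.00657) and 2.49 ± 0.40 (adjusted p = 0.000671). Adjusted for ribosomal protein share, the change over both genotypes was 0.07 ± 0.43 for Ccl6 and -0.02 ± 0.34 for Ccl9, so that the sign of Ccl9 turned. Except in KO TAC 1 and WT TAC 3 that share followed surgery. The adjusted changes therefore rest largely on those libraries and can lose part of the change that goes with surgery. The macrophage marker sum given above had the same 2 low TAC libraries, and so did the ribosomal protein share. The part of either in these values was not tested.

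Leaving out those 2 libraries raised the number of ligands called to 7 of 21 in KO and 8 of 21 in WT, and to 10 of 21 over both genotypes. The shares of all genes called rose as well, to 14.7%, 30.5% and 37.8%. In KO the 7 were Ccl8, Cxcl16, Ccl9, Ccl6 and Cxcl10, all higher, and Cxcl14 and Cxcl12, both lower. In WT the 8 were Ccl8, Ccl6, Ccl9, Cxcl16, Ccl17 and Ccl25, all higher, and Ccl11 and Cxcl12, both lower. The libraries left out were chosen by a measure other than the ligands, the ribosomal protein share, with earlier results of these data known. That share was 0.654% to 1.73% in sham libraries and 3.19% to 6.78% in the TAC libraries kept. The choice therefore left out the TAC libraries nearest to sham in this share and was not independent of the operation. How far the added calls follow from it was not tested.

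**Figure D4:**
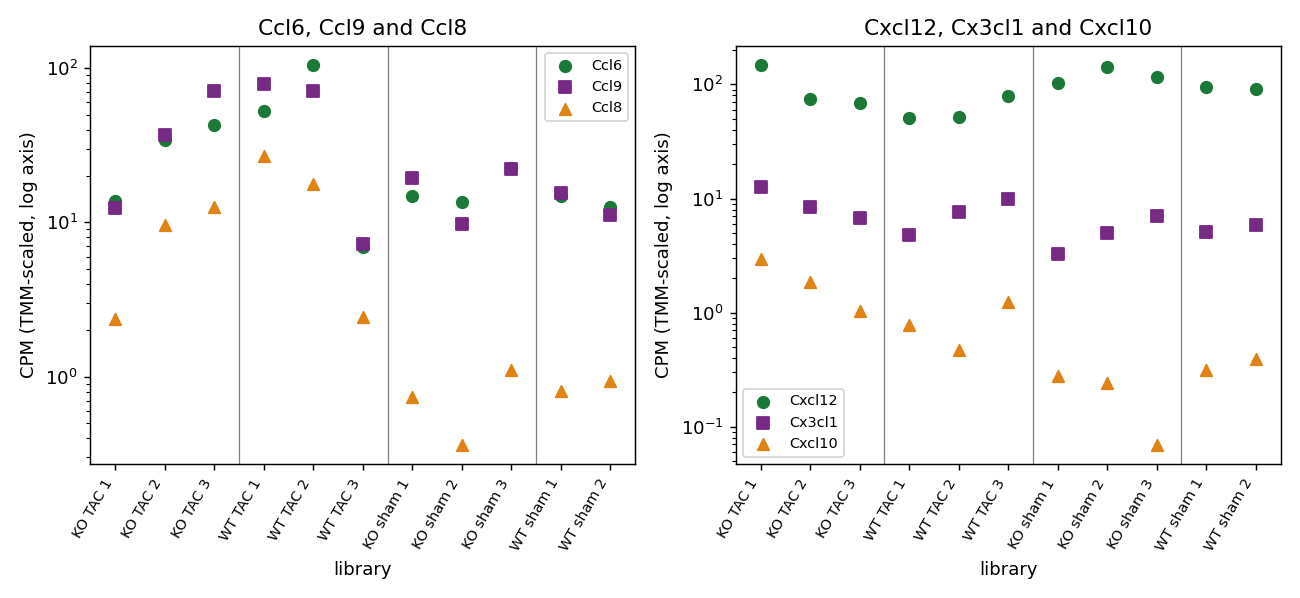
Level in CPM (log axis) of Ccl6, Ccl9 and Ccl8 (left) and of Cxcl12, Cx3cl1 and Cxcl10 (right) in each of the 11 libraries, with lines between the groups. In KO TAC 1 and WT TAC 3 the genes on the left are at the bottom of their TAC group and those on the right at the top.

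Ccl3, Ccl4 and Ccl5, chemokines of macrophages and T cells, were low, at 1.43 CPM or less in every library. Ccl4 measured 0.763, 0.867 and 0.515 CPM in KO TAC and 0.417, 0.467 and 0.26 CPM in WT TAC hearts. Sham hearts had 0.371, 0 and 0.278 CPM in KO sham and 0.0625 and 0.157 CPM in WT sham hearts. TAC libraries of each genotype were above the sham libraries of that genotype, yet the change of 1.76 ± 0.94 log2 in KO did not pass (adjusted p = 0.343). In WT it had 20 counts after TAC and 3 counts after sham, a ratio of 3.60 with a 95% counting interval of 1.07 to 18.9 that covers counting error only. Ccl5 measured 0.524, 1.04 and 1.43 CPM in KO TAC and 0.119, 0.818 and 0.831 CPM in WT TAC hearts. With sham surgery the levels were 0.741, 0.664 and 0.347 CPM in KO sham and 0.188 and 0.0787 CPM in WT sham hearts. Ccl3 ran from 0.400 to 0.867 CPM in KO TAC and from 0.0596 to 0.584 CPM in WT TAC hearts, against 0 to 0.764 CPM in KO sham and 0.0625 and 0.394 CPM in WT sham hearts. Neither Ccl3 nor Ccl5 passed, and TAC and sham libraries of both overlapped in each genotype.

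Of the eotaxins, which draw eosinophils through CCR3, Ccl11 fell after TAC and Ccl24 did not pass. Ccl11 (ENSMUSG00000020676, chr11:82057823-82062955, plus strand), made by fibroblasts and other stromal cells, measured 0.906, 0.751 and 0.458 CPM in KO TAC and 0.298, 0.0584 and 0.519 CPM in WT TAC hearts. The sham groups measured 3.34, 1.39 and 2.36 CPM in KO sham and 2.75 and 4.09 CPM in WT sham hearts. All 6 TAC libraries were below all 5 sham libraries. Ccl11 fell by 2.49 ± 0.52 on the log2 scale over both genotypes (adjusted p = 0.00505, edgeR) under all 21 alternatives run. In WT it fell by 3.50 ± 0.72 (adjusted p = 0.0168), and the change in KO was -1.72 ± 0.63 (adjusted p = 0.151). The WT call was lost in 4 of 22 alternatives: without WT TAC 1, WT sham 1 or WT sham 2, and with titles ending in M alone (adjusted p 0.0580 to 0.125). Without KO TAC 1 and WT TAC 3 the changes were -1.97 ± 0.70 in KO and -4.21 ± 0.84 in WT (adjusted p = 0.0722 and 0.00257). Ccl24, an eotaxin of macrophages, measured 0.572, 0.809 and 0.229 CPM in KO TAC and 0.834, 3.97 and 0.156 CPM in WT TAC hearts. After sham surgery the gene was at 2.5, 1.45 and 2.36 CPM in KO sham and 2.44 and 0.945 CPM in WT sham hearts. In KO the 3 TAC libraries were below the 3 sham libraries, and in WT the groups overlapped because WT TAC 2 was the highest of all 11. Ccl24 did not pass in any comparison, and the sign of its WT change turned in 8 alternatives. Ccr3 had 0 counts in all libraries. The 7 eosinophil and mast cell markers summed to 3.76 to 9.67 CPM in KO TAC, 2.75 to 3.81 CPM in WT TAC, 3.96 to 4.71 CPM in KO sham and 3.23 to 3.25 CPM in WT sham hearts, and no gene of the list passed in either genotype.

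Ccl17, a CCR4 ligand of dendritic cells and macrophages, had 0 counts in both WT sham libraries and 58 counts in the WT TAC libraries, so that it was at least 10.4-fold higher after TAC, with the floor set at 3 counts over the group. Its levels were 0.0953, 0.462 and 0.572 CPM in KO TAC and 1.13, 1.87 and 0.364 CPM in WT TAC hearts. KO sham hearts had 0, 0.181 and 0.625 CPM and overlapped with KO TAC hearts. The WT change did not pass (adjusted p = 0.0622, edgeR). The lymphoid and epithelial ligands Ccl21a, Ccl25 and Ccl27a were measured at levels that overlapped between TAC and sham in each genotype. Ccl21a, the CCR7 ligand of lymphatic vessels, was at 4.24 to 6.29 CPM in KO TAC and 3.01 to 6.60 CPM in WT TAC hearts, against 5.28 to 7.51 CPM in KO sham and 3.94 and 5.67 CPM in WT sham hearts. Ccl25, the CCR9 ligand, measured 0.763, 1.27 and 1.77 CPM in KO TAC and 5.48, 3.21 and 0.104 CPM in WT TAC hearts. Sham levels were 1.11, 0.664 and 1.46 CPM in KO sham and 1.44 and 0.787 CPM in WT sham hearts. It overlaps Elavl1 on the other strand, which had 4860 counts in all against 295 counts of Ccl25, and the sources used here do not say whether reads were counted by strand. Ccl27a, the CCR10 ligand, overlaps Il11ra1 in the same way (5384 counts against 398), and ran from 0.715 to 4.35 CPM in KO TAC and 1.56 to 3.52 CPM in WT TAC hearts, against 1.63 to 3.89 CPM in KO sham hearts, with a mean of 2.22 ± 1.02 CPM in WT sham hearts (SD, n = 2). None of the 3 passed in KO, WT or over both genotypes.

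Cxcl16 (ENSMUSG00000018920, chr11:70453983-70459984, minus strand) encodes a chemokine with a membrane anchor that is the ligand of CXCR6 and also takes up oxidised lipids on macrophages. It measured 14.2, 24.1 and 37.4 CPM in KO TAC and 21.8, 32.8 and 16.3 CPM in WT TAC hearts. Sham hearts had 13.4, 5.13 and 7.99 CPM in KO sham and 8.38 and 6.46 CPM in WT sham hearts. All TAC libraries were above all sham libraries, with KO TAC 1 (14.2 CPM) close above KO sham 1 (13.4 CPM). Cxcl16 rose by 1.58 ± 0.31 log2 over both genotypes (adjusted p = 0.00372, edgeR) and passed under all 21 alternatives run, between 1.07 and 2.00. In KO and WT alone the changes of 1.52 ± 0.43 and 1.67 ± 0.50 did not pass (adjusted p = 0.063 and 0.0622). Without KO TAC 1 and WT TAC 3 they were 1.77 ± 0.36 and 1.88 ± 0.41 (adjusted p = 0.00493 and 0.00415). Zmynd15 overlaps it on the other strand with 389 counts against 3170. The gene of its receptor passed in each genotype. Cxcr6 measured 0.62, 9.59 and 6.23 CPM in KO TAC and 56.4, 50.1 and 3.89 CPM in WT TAC hearts, against 0, 0.0603 and 0.208 CPM in KO sham and 0.313 and 0.157 CPM in WT sham hearts. Cxcr6 had a fitted log2 change of 5.73 ± 1.36 in KO (adjusted p = 0.0327) and 7.21 ± 1.48 in WT (adjusted p = 0.0168). Its sham levels, at 0.313 CPM or less, rest on few counts, as 3 counts equal 0.173 to 0.203 CPM before TMM scaling. The size of both changes is uncertain for that reason. KO TAC 1 and WT TAC 3 were again the lowest TAC libraries. The KO call was lost in 7 of 22 alternatives, among them those without KO TAC 2 or 3 or any KO sham library, and the WT call in 4 of 22, among them those without either WT sham library (adjusted p 0.0735 to 0.490 over both). Cxcr6 lies within Fyco1, which is on the other strand and had 2581 to 6108 counts in KO TAC and 2202 to 4087 counts in WT TAC, against 4126 to 8998 counts in KO sham and 5920 and 7083 counts in WT sham libraries. CXCR6 is known from T and NK cells. The 7 lymphocyte markers summed to 1.86 to 7.44 CPM in KO TAC and 0.477 to 1.64 CPM in WT TAC hearts, against 1.87 to 3.89 CPM in KO sham and 2.52 and 2.69 CPM in WT sham hearts. Of these 7 markers 2 passed the filter on low counts, and Cd3e was at 0.515 CPM or less in every library. The part of lymphocytes in the levels of Cxcr6 was not tested.

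The CXCR3 ligands Cxcl9 and Cxcl10, which interferon induces and which draw T cells, lie near each other on chromosome 5, and of the pair Cxcl10 alone passed. Cxcl10 (ENSMUSG00000034855, chr5:92346638-92348889, minus strand) measured 2.95, 1.85 and 1.03 CPM in KO TAC and 0.774, 0.467 and 1.25 CPM in WT TAC hearts. With sham surgery the levels were 0.278, 0.241 and 0.0695 CPM in KO sham and 0.313 and 0.394 CPM in WT sham hearts. All TAC libraries were above all sham libraries, and KO TAC 1 had the highest value of the 11. Cxcl10 rose by 3.28 ± 0.74 log2 in KO (adjusted p = 0.026, edgeR) and by 2.33 ± 0.59 over both genotypes (adjusted p = 0.0154). The WT change of 1.23 ± 0.79 did not pass (adjusted p = 0.352), and the difference between the genotypes of 2.06 ± 1.07 did not either (adjusted p = 0.992). The KO call was lost in 7 of 21 alternatives, among them those without KO TAC 1 or 2 or any KO sham library (adjusted p 0.0621 to 0.112). Over both genotypes the call was lost in 1 of 20, with titles ending in M alone (adjusted p = 0.0588). These are low counts, 175 in all, and Art3 overlaps Cxcl10 on the other strand with 54156 counts. Cxcl9 measured 12.1, 10.2 and 6.98 CPM in KO TAC and 2.2, 4.44 and 12.8 CPM in WT TAC hearts. The sham groups measured 15.2, 10.3 and 5.28 CPM in KO sham and 7 and 8.9 CPM in WT sham hearts. TAC and sham libraries overlapped in both genotypes, and KO TAC 1 and WT TAC 3 were the highest of their groups. The change of Cxcl9 was -0.17 ± 0.39 log2 over both genotypes (adjusted p = 0.804) and changed sign in 5 alternatives. Among the listed inducers, Irf7, an interferon-induced transcription factor, measured 28.5, 46.5 and 22.8 CPM in KO TAC and 12.3, 27.2 and 23.8 CPM in WT TAC hearts, against 11.3, 12.6 and 12.2 CPM in KO sham and 11.3 and 5.51 CPM in WT sham hearts. Irf7 rose by 1.44 ± 0.37 log2 in KO (adjusted p = 0.0475), a call lost in 7 of 22 alternatives, including those without KO TAC 2, WT TAC 2 or any KO sham library (adjusted p 0.0553 to 0.179).

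The 250 bases before the RefSeq start of Cxcl10 (chr5:92348890-92349139 (minus strand), GRCm38.p6) are shown because this gene rose while its neighbour did not pass. The capitals mark, from left to right, the letters of an interferon-stimulated response element (GAAA, 2 bases of any kind, GAAA), a pair of kappaB matches (GGGA, 2 bases of any kind, T, 1 base of any kind, CC) and AP-1 (TGANTCA). They lie at positions -213 to -204, -159 to -150, -103 to -94 and -74 to -68. Both strands were searched, and 2.98%, 3.33% and 6.75% of all windows hold the first, the kappaB and the AP-1 letters. Of the letters searched, the window of Cxcl9 holds TATAAA alone, at positions -195 to -190 and not at -32 to -27 as in Ccl8. Whether these letters bear on the levels of either gene was not tested.
Cxcl10: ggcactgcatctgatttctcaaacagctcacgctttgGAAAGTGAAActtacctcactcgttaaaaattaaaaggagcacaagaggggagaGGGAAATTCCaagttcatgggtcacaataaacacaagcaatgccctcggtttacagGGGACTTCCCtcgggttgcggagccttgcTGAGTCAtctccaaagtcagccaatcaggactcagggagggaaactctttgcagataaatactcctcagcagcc

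The CXCR2 ligands draw neutrophils, and the one with the highest level, Cxcl1 (ENSMUSG00000029380, chr5:90891241-90893115, plus strand), was lower after TAC. It measured 1.24, 1.91 and 1.94 CPM in KO TAC and 1.67, 1.58 and 1.51 CPM in WT TAC hearts. After sham surgery the gene was at 3.34, 2.05 and 3.4 CPM in KO sham and 3.69 and 4.57 CPM in WT sham hearts. The 6 TAC libraries lay within a narrow band below all 5 sham libraries. Cxcl1 fell by 1.05 ± 0.29 on the log2 scale over both genotypes (adjusted p = 0.0206, edgeR), and the changes of -0.78 ± 0.39 in KO and -1.38 ± 0.43 in WT did not pass (adjusted p = 0.304 and 0.0697). The call was lost in 5 of 21 alternatives: with library totals in place of TMM, where the change was -0.64 while that of the median gene was 0.45, without the low count filter, and without KO sham 3, WT sham 1 or WT sham 2 (adjusted p 0.0508 to 0.139 in the 5). Cxcl5, another CXCR2 ligand, had 1.05, 0.231 and 0.858 CPM in KO TAC and 0.477, 0.409 and 0.208 CPM in WT TAC hearts, against 0.185, 0 and 0.347 CPM in KO sham and 0.125 and 0.0787 CPM in WT sham hearts, and did not pass. The 5 neutrophil markers summed to 2.72 to 33.2 CPM in KO TAC, 2.86 to 15.1 CPM in WT TAC, 1.87 to 6.81 CPM in KO sham and 5.06 and 24.2 CPM in WT sham hearts. Il1b, an inducer of Cxcl1, measured 2.05, 3.12 and 3.26 CPM in KO TAC and 0.179, 0.292 and 0.312 CPM in WT TAC hearts, against 0.741, 0.362 and 0.764 CPM in KO sham and 2.38 and 0.709 CPM in WT sham hearts. Il1b fell by 2.54 ± 0.67 on the log2 scale in WT (adjusted p = 0.0426), a call lost in 12 of 21 alternatives (adjusted p 0.0531 to 0.384), among them those without KO TAC 2, WT TAC 1 or 2 or any sham library. In KO its change was 2.17 ± 0.60 (adjusted p = 0.0586), of the other sign, and the difference between genotypes did not pass (adjusted p = 0.992).

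Cxcl14 (ENSMUSG00000021508, chr13:56288643-56296551, minus strand), a chemokine of epithelia and fibroblasts whose signalling receptor is not settled, measured 5.15, 2.72 and 4.52 CPM in KO TAC and 2.26, 7.19 and 4.31 CPM in WT TAC hearts. Sham levels were 14, 7.12 and 12.2 CPM in KO sham and 10.2 and 10.1 CPM in WT sham hearts. The KO TAC libraries were below the KO sham libraries and the WT TAC libraries below the WT sham libraries, while WT TAC 2 (7.19 CPM) was just above KO sham 2 (7.12 CPM). Cxcl14 fell by 1.30 ± 0.30 on the log2 scale over both genotypes (adjusted p = 0.00999, edgeR) and passed under all 21 alternatives run, with changes from -1.49 to -0.87. The changes of -1.42 ± 0.42 in KO and -1.14 ± 0.46 in WT did not pass (adjusted p = 0.0789 and 0.146). Of the 6 fibroblast markers, Postn, Col1a1 and Col1a2 rose after TAC in both genotypes. Dcn, Pdgfra and Tcf21 did not pass, with changes of 0.08, 0.26 and 0.97 log2 in KO and 0.63, 1.12 and 1.19 log2 in WT. The 6 summed to 1936 to 2843 CPM in KO TAC and 2804 to 4741 CPM in WT TAC hearts, against 627 to 887 CPM in KO sham and 609 and 660 CPM in WT sham hearts. The part of the fibroblasts in the levels of Cxcl14, Ccl11 and Cxcl12 was not tested.

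The 250 bases before the RefSeq starts of Cxcl1 (chr5:90890995-90891244 (plus strand)) and Cxcl14 (chr13:56296552-56296801 (minus strand)), both GRCm38.p6, are shown as those of 2 ligands that fell. In Cxcl1 the capitals mark the kappaB letters at positions -71 to -62, joined to an overlapping match on the other strand at -70 to -61. In Cxcl14 they mark TTC, 3 bases of any kind, GAA (gamma-activated site, held by 7.02% of windows) at -191 to -183 and the interferon-stimulated response element at -172 to -163. The kappaB letters therefore stood before Cxcl10, which rose, and before Cxcl1, which fell.
Cxcl1: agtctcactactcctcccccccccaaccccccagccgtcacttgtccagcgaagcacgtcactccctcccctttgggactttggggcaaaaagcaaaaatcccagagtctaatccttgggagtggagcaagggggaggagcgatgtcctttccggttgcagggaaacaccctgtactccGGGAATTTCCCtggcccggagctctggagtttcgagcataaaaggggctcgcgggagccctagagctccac
Cxcl14: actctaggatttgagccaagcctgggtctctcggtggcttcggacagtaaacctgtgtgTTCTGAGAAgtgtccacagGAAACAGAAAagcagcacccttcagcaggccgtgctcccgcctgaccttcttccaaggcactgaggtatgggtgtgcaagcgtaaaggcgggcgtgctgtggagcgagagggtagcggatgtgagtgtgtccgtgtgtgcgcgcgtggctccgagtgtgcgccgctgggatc

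Cxcl12, which holds CXCR4-bearing cells in their niches and guides vessels, was the ligand with the most counts, 16684 in all. It measured 148, 75.2 and 69.4 CPM in KO TAC and 50.9, 51.7 and 79.3 CPM in WT TAC hearts. Sham hearts had 104, 142 and 116 CPM in KO sham and 94 and 90.5 CPM in WT sham hearts. KO TAC 1 was the highest of the 11 libraries, and the WT TAC libraries were all below the WT sham libraries. The changes of -0.30 ± 0.32 log2 in KO and -0.61 ± 0.35 in WT did not pass (adjusted p = 0.687 and 0.299, edgeR). Without KO TAC 1 and WT TAC 3 they were -0.77 ± 0.23 and -0.85 ± 0.25 and passed (adjusted p = 0.0396 and 0.0204). In that fit 14.7% of all genes passed in KO and 30.5% in WT. The libraries left out were those with the most Cxcl12 in their TAC groups, so that leaving them out lowers the TAC means. Library totals in place of TMM turned the KO change to 0.16, beside 0.49 for the median gene. Cx3cl1, the membrane-bound ligand of CX3CR1 on endothelium, measured 12.7, 8.44 and 6.69 CPM in KO TAC and 4.83, 7.66 and 9.87 CPM in WT TAC hearts. With sham surgery the levels were 3.24, 5.01 and 7.02 CPM in KO sham and 5.13 and 5.9 CPM in WT sham hearts. The groups overlapped in both genotypes. Its change over both genotypes was 0.67 ± 0.28 log2 (adjusted p = 0.108), and 1.04 ± 0.25 (adjusted p = 0.00648) after adjustment for ribosomal protein share. Cx3cl1 and Cxcl12 were both highest of their TAC group in KO TAC 1 and WT TAC 3, the libraries that were lowest in Ccl6, Ccl9 and Ccl8. The 5 endothelial markers summed to 1783, 2170 and 2191 CPM in KO TAC, 1772, 1148 and 1470 CPM in WT TAC, 1061 to 1856 CPM in KO sham and 832 and 1163 CPM in WT sham hearts, with KO TAC 1 the lowest and WT TAC 3 the middle of their groups.

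**Figure D5:**
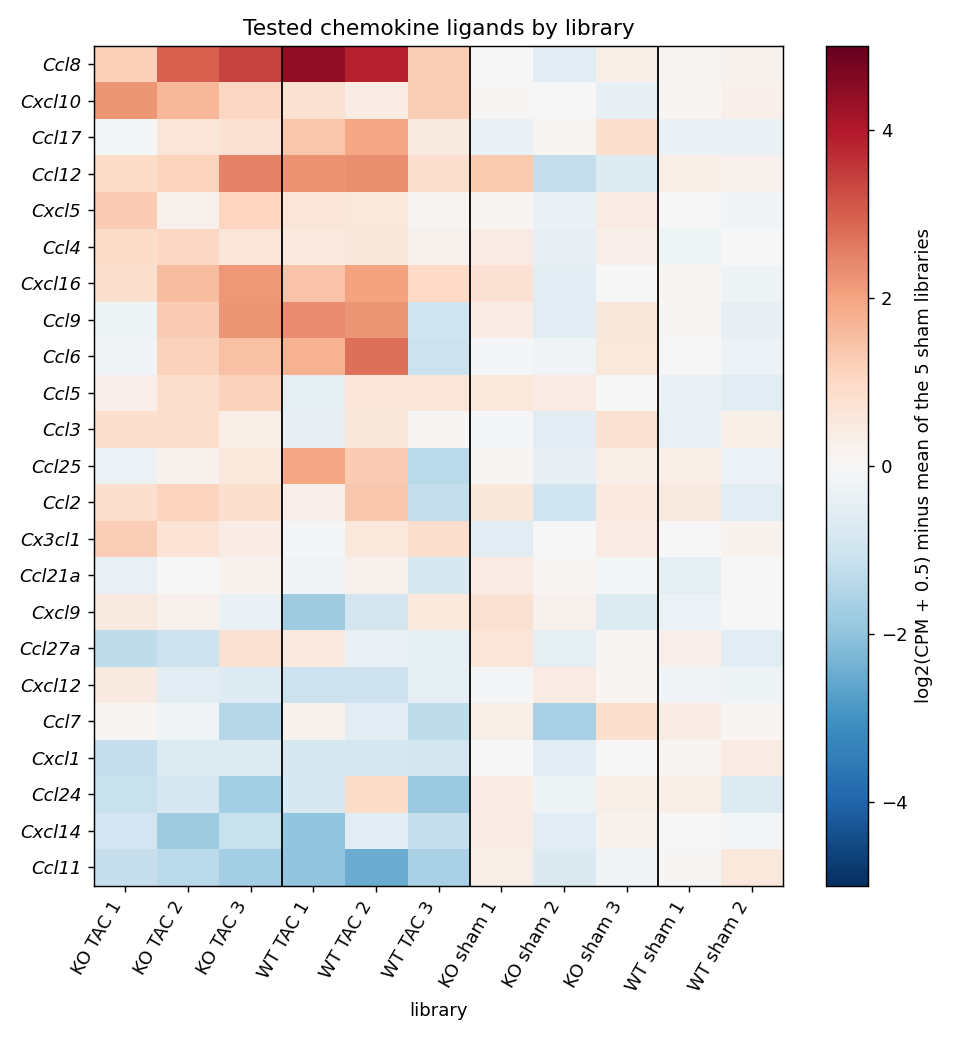
Log2(CPM + 0.5) of the 23 tested ligands in the 11 libraries, less the mean of the 5 sham libraries for each gene (colour scale), with rows ordered by the change over both genotypes. The Ccl8, Cxcl10 and Cxcl16 rows are above the sham mean in all 6 TAC libraries and the Ccl11, Cxcl14 and Cxcl1 rows below it, while Ccl6 and Ccl9 are below it in KO TAC 1 and WT TAC 3.

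The comparison of KO with WT asks whether the label of the Lmnb2 deletion changed the ligands. No ligand passed, after sham, after TAC or in the difference of the TAC response (0 of 23 each, beside 0% of all 14619 tested genes in each), in edgeR or under any alternative, DESeq2 and limma-voom included. At an unadjusted p under 0.05 there was 1 of 23 after sham, beside 1.27% of all tested genes, 0 of 23 after TAC, beside 6.36%, and 1 of 23 in the difference, beside 2.97%, and that 1 was Ccl17 in both cases. After TAC the 3 smallest p-values belonged to Cxcl12, with a log2 difference of KO over WT of 0.69 ± 0.32, Cxcl10 with 1.22 ± 0.64 and Ccl11 with 1.24 ± 0.68 (adjusted p = 0.747 for each). Group means were 97.6 ± 43.9 and 60.6 ± 16.2 CPM for Cxcl12, 1.94 ± 0.966 and 0.829 ± 0.392 CPM for Cxcl10 and 0.705 ± 0.228 and 0.292 ± 0.23 CPM for Ccl11 in KO TAC and WT TAC hearts (SD, n = 3 each, same edgeR fit). Libraries of KO TAC and WT TAC overlapped for each of these 3 genes. Ccl4 alone of the 23 had all KO TAC libraries above all WT TAC libraries, where 7.75% of all tested genes do not overlap, and its difference was 0.90 ± 0.87 (adjusted p = 0.791). After sham, Ccl17 had 12 counts in KO and 0 in WT, at least 2.75-fold higher by the same floor, with KO sham 1 also at 0. Ccl5 differed by 2.03 ± 1.04 and Cxcl1 by -0.50 ± 0.42 log2 (adjusted p = 1 for all 3, edgeR). Sham libraries did not overlap for 4 of 23, Ccl5 and Cxcl12 higher and Cxcl1 and Cxcl10 lower in KO, beside 15.3% of all tested genes. In the difference of the TAC response, Cxcl10 had 2.06 ± 1.07 and Ccl11 1.78 ± 0.94 log2, KO minus WT (adjusted p = 0.992 each, Ccl17 included). With standard errors near 1 log2 unit, a p that misses the threshold does not show that KO and WT hearts responded alike.

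The receptors were described by a list of 19 genes, of which 13 had 10 or more counts and 9 were tested. Over both genotypes 6 of the 9 were called, all higher after TAC, beside 19.5% of all tested genes, among them Cxcr6, Ccr2, Ccr1, Cxcr4 and Cx3cr1. In KO 3 of 9 passed, among them Ccr2 and Cxcr6, beside 4.7% of all genes, and in WT 2 of 9, Cxcr6 and Ccr1, beside 6.92%. The KO count was 0 without KO sham 1, 1 without KO TAC 2 or KO sham 2, and 5 without WT TAC 3. All genes called in KO moved as well, from 687 of 14619 to 226 of 14597, 309 of 14465, 312 of 14545 and 996 of 14490. The WT count was 0 without WT sham 1 or WT sham 2, and 1 without KO TAC 2, WT TAC 1, WT TAC 2, KO sham 1 or KO sham 3. All genes called in WT were 1011 in the main analysis. They were 30 of 15565 and 88 of 15584 without either WT sham library, and 363 to 773 in the others named. Between 8 and 10 receptors were tested in these settings. The median log2 change was 2.29 in KO and 0.94 in WT. Most of these receptors are carried by leukocytes, and the macrophage marker sum given above was higher in every TAC library than the sham libraries of its genotype. Its part in the receptor levels was not tested. Ccr1, the receptor for Ccl6 and Ccl9, measured 4.19, 9.19 and 19.7 CPM in KO TAC and 27.8, 36.8 and 3.84 CPM in WT TAC hearts. The sham groups measured 2.5, 0.362 and 2.78 CPM in KO sham and 1.69 and 0.551 CPM in WT sham hearts. The same 4 TAC libraries that led in Ccl6 and Ccl9 led in Ccr1. Ccr1 rose by 4.31 ± 1.11 log2 in WT (adjusted p = 0.0384, edgeR), a call lost in 11 of 22 alternatives (adjusted p 0.0531 to 0.262), among them those without KO TAC 2, WT TAC 1 or 2, KO sham 1 or 3 or either WT sham library. In KO the change was 2.57 ± 0.87 (adjusted p = 0.119). Ccr2, the monocyte receptor, followed another order, with 20.4, 22.5 and 9.72 CPM in KO TAC and 6.14, 7.3 and 7.58 CPM in WT TAC hearts. After sham surgery the gene was at 2.97, 1.75 and 5.49 CPM in KO sham and 3.75 and 3.54 CPM in WT sham hearts. Ccr2 rose by 2.37 ± 0.43 log2 in KO (adjusted p = 0.00913, edgeR), and of the 22 alternatives 1 ended this call, the one without KO sham 1 (adjusted p = 0.0550). KO TAC libraries of Ccr2 were above all WT TAC libraries, and the KO against WT difference after TAC was 1.32 ± 0.41 (adjusted p = 0.747), not past the threshold.

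Of the 5 atypical receptors, which bind chemokines without G protein signalling, 4 were tested. None passed in KO or in WT, beside 4.7% and 6.92% of all genes, and 3 passed over both genotypes, beside 19.5%. There Ackr4, the scavenger of CCL19, CCL21 and CCL25, rose by 1.98 ± 0.54 log2 (adjusted p = 0.0203, edgeR), and Ackr3, the scavenger of CXCL12, and Ccrl2 were lower. Ackr3 changed by -0.67 ± 0.19 (adjusted p = 0.024). Ackr4 measured 7.1, 12.7 and 40.6 CPM in KO TAC and 43.4, 31.8 and 10.2 CPM in WT TAC hearts, against 11, 7.6 and 3.13 CPM in KO sham and 5.31 and 3.62 CPM in WT sham hearts, and again KO TAC 1 and WT TAC 3 were lowest of their groups. Ackr3 measured 68.3, 40.9 and 76.5 CPM in KO TAC and 46.4, 62.7 and 55.4 CPM in WT TAC hearts, against 101, 94.1 and 89.4 CPM in KO sham and 98.6 and 83.2 CPM in WT sham hearts. Acad11 overlaps Ackr4 on the other strand, with 461 to 2075 counts in a library. These 2 genes were named after their values were seen. In the list of 21 inducing cytokines and their mediators, 16 were tested, and 1 passed in KO (Irf7, higher) and 1 in WT (Il1b, lower), beside 4.7% and 6.92% of all genes. Il6 was at 2.43 CPM or less in every library. Pf4 and Ppbp, platelet chemokines whose symbols fall outside the rule, were not called. Pf4 measured 8.24, 16.2 and 14.4 CPM in KO TAC and 41, 43.9 and 5.35 CPM in WT TAC hearts, against 13.3, 5.91 and 8.54 CPM in KO sham and 9.88 and 6.38 CPM in WT sham hearts, and KO TAC 1 and WT TAC 3 were the lowest of their TAC groups, as for Ccl6. Ppbp was lower, at 0 to 0.620 CPM in KO TAC and 0 to 0.234 CPM in WT TAC hearts, against 0.0695 to 1.67 CPM in KO sham and 0.688 and 0.551 CPM in WT sham hearts.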

How the data were processed

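Bulk RNA of ventricular myocardium was measured in 11 libraries. The authors deposited raw counts for each Ensembl gene, all of them whole numbers when checked. STAR 2.5.1, featureCounts, DESeq2 and build GRCm38 are named per the submitters' processing notes, and the sources used here give neither their roles nor the strand setting, nor how reads with more than 1 alignment were counted, which bears on overlapping genes and copies. Symbols, coordinates and exon lengths came from GENCODE M21 (46005 of 46517 identifiers matched), and 0 columns were left out.

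Samples were grouped by their genotype and treatment labels. Counts were tested in R 4.3.3 with edgeR 4.0.16 (filterByExpr, TMM, glmQLFit and glmQLFTest on all 11 libraries, with 1 mean per group and 7 residual degrees of freedom, or with genotype and surgery as terms for the comparison over both genotypes). Tests were 2-sided, with Benjamini-Hochberg adjustment over 14619 genes and a threshold of 0.05, and each adjusted p in the text comes from edgeR unless another tool is named. Standard errors, approximate, were taken as log2 change divided by the square root of F. Alternatives used limma 3.58.1 and DESeq2 1.42.0 among others. At this depth 3 counts equal 0.173 to 0.203 CPM before TMM scaling, and floors and intervals cover counting error only.

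Promoter windows came from RefSeq (GRCm38.p6), which held one for 27 of the 38 genes. Full statistics are given for called ligands or, where none was called, for the 3 with the smallest p, and listed receptors and inducers called in a genotype are named, except 1 that is not reported here. The members and lists were chosen with earlier results of these data known.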

Additional observations from a re-analysis of the deposited data

How the results depend on the processing

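The counts of ligands called moved with the setting where few were called. In WT, 2 passed in the main analysis, and 6 with DESeq2, 1 with limma-voom, 4 with library totals in place of TMM, 7 without the low count filter, 1 with the title letter and 1 with ribosomal protein share as a covariate, 0 with titles ending in M only and 8 without KO TAC 1 and WT TAC 3. The ligands tested were 23, but 33 without the filter and 21 in the last 2 settings. Of all 14619 genes, 1011 passed in WT in the main analysis. In those settings in turn 2197, 730, 1177, 2243 (of 24235), 608, 1324, 204 (of 14191) and 4374 (of 14363) passed. In KO, 2 ligands passed, and 4 with DESeq2, 0 with limma-voom, 6 without the filter and 1 with a mean of at least 1 CPM. There were 1 with the title letter, 5 with ribosomal protein share, 0 with titles ending in M only and 7 without the 2 libraries. The mean CPM filter left 17 ligands to test, and Cxcl10 was not among them. Of all 14619 genes, 687 passed in KO in the main analysis. With DESeq2, limma-voom, the title letter and ribosomal protein share 1490, 496, 606 and 2295 passed. Without the filter 928 passed as higher and 403 as lower (of 24235). The mean CPM filter gave 748 (of 12617). Titles ending in M only gave 102 (of 14191), and leaving out the 2 libraries gave 2117 (of 14363). Over both genotypes 6 passed, and 11 with library totals and 10 without the 2 libraries, beside 2855, 3962 and 5436 (of 14363) of all genes. Leaving out 1 library at a time gave 0 to 6 in WT, 0 to 3 in KO and 5 to 10 over both genotypes. All genes called then ran from 30 to 2663 in WT, from 226 to 996 in KO and from 1672 to 3870 over both. The KO against WT comparisons and the difference of responses gave 0 in all settings run, where all genes called were at most 206 of 24235 (after TAC, without the filter). The cause of these moves was not tested.

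The log2 changes that turned sign, of Lmnb2 or of ligands that did not pass in that comparison, were the following, with the cause not tested. With DESeq2 the values were Ccl24 0.0059 in WT. With library totals, which moved the median gene to 0.49 in KO, 0.37 in WT and 0.45 over both, the values were Ccl21a 0.24, Ccl27a 0.054, Cxcl12 0.16 and Cxcl9 0.45 in KO; Ccl24 0.19 and Cxcl9 0.11 in WT; Ccl21a 0.29, Ccl27a 0.16 and Cxcl9 0.30 over both. With limma-voom the values were Cxcl9 0.055 in KO and Ccl21a -0.031 and Ccl27a -0.042 in WT. With ribosomal protein share the values were Ccl17 -0.47, Ccl25 -0.54 and Cxcl9 0.27 in KO; Ccl2 -0.68, Ccl21a -0.41, Ccl25 -1.25, Ccl27a -1.19, Ccl9 -0.65 and Cxcl9 0.42 in WT; Ccl25 -0.72, Ccl9 -0.018 and Cxcl9 0.33 over both. With the title letter the values were Ccl21a -0.023, Ccl24 0.23 and Ccl27a -0.41 in WT. With titles ending in M only the values were Ccl25 -0.34, Cxcl12 0.05 and Cxcl9 0.15 in KO; Ccl24 0.27, Ccl27a -0.40 and Cxcl9 0.15 in WT; Cxcl9 0.15 over both. Without KO TAC 1 and WT TAC 3 the values were Ccl24 0.50 in WT and Ccl21a 0.049 and Ccl27a 0.061 over both. With 1 library left out at a time, values on both sides of 0 ran over these ranges: Ccl17 -0.098 to 1.79, Ccl25 -0.067 to 0.52 and Cxcl9 -0.38 to 0.32 in KO; Ccl2 -0.43 to 1.28, Ccl21a -0.26 to 0.29, Ccl24 -1.76 to 0.80, Ccl27a -0.43 to 0.60, Ccl3 -0.41 to 2.13 and Cxcl9 -1.26 to 0.12 in WT; Cxcl9 -0.52 to 0.012 over both; Lmnb2 -0.066 to 1.24 in KO against WT after TAC. No paired analysis was possible because no label ties a sample of one group to a sample of another.

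Groups of 2 or 3 libraries, 2 TAC libraries of low ribosomal protein share, title letters spread unevenly over the groups and surgery that follows the title numbers limit all comparisons, and ligands under 1 CPM rest on few counts.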

Other observations

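The 27 ligand genes with a RefSeq promoter had 33 windows. The kappaB letters were found in 5 windows (Ccl1, Cxcl1, Cxcl2, Cxcl3 and Cxcl10), which is 15.2% beside 3.33% of all 32851 windows, and the interferon-stimulated response element in 3 (Ccl19, Cxcl10 and Cxcl14), 9.09% beside 2.98%. The letters TATAAA, on either strand and at any position of the window, were found in 10 (30.3% beside 12.4%). The AP-1 letters were found in 4 (Ccl9, Ccl27a, Ccl27b and Cxcl10, 12.1% beside 6.75%) and those of the gamma-activated site in 2 (Ccl17 and Cxcl14, 6.06% beside 7.02%). These shares were not tested. Cxcl1, Cxcl2 and Cxcl3, which lie close together on chromosome 5 and attract neutrophils, all hold the kappaB letters, and of them Cxcl1 fell after TAC over both genotypes (adjusted p = 0.0206, edgeR), Cxcl2 had too few counts for a test and Cxcl3 had 2 counts in all. A match describes the letters of the window and not a site in use.

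Ccl9 and Ccl6 lie next to each other on chromosome 11, and the ratio of Ccl9 to Ccl6 CPM was 0.900, 1.08 and 1.66 in KO TAC and 1.49, 0.682 and 1.05 in WT TAC, against 1.31, 0.728 and 0.991 in KO sham and 1.04 and 0.887 in WT sham hearts. While Ccl9 was at 78.7, 71.5 and 7.22 CPM in the 3 WT TAC libraries, the ratio lay between 0.682 and 1.66 in all 11. The 3 fat cell markers Adipoq, Plin1 and Cfd summed to 31.4 CPM in WT TAC 3 and to 3.52 CPM or less in every other library.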
